A study of Homo sapiens with 12 samples.

Results

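The IL6 cytokine family was described here through 10 genes chosen by name: the ligands IL11, IL6, LIF and CLCF1, the receptor chains IL6ST, OSMR, LIFR and IL6R, the feedback inhibitor SOCS3 and the transcription factor STAT3. All 10 were found among the 27745 genes of the count table and the 60675 genes of the table from RNA immunoprecipitation (RIP), and all 10 passed the filter on low counts. The set was drawn up with earlier results of these same libraries known, IL11 among them, so the differences of its members from the control libraries are descriptions and carry no test.

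All cells were MDA-MB231, a triple-negative line established from a breast cancer. Cells carried a stable lentiviral short hairpin RNA: a control hairpin (sh_control), a hairpin against TDP43 (sh_TDP43) or a hairpin against SRSF3 (sh_SRSF3), with 2 RNA-seq libraries in each group. TDP43, the product of TARDBP, is a nuclear RNA-binding protein, and SRSF3 belongs to the SR family of splicing factors. For the RIPs, MDA-MB231 cells overexpressed Flag-tagged TDP43 or Flag-tagged SRSF3, and RNA pulled down with an antibody to Flag was sequenced beside input RNA, with 1 library of each kind per protein and no replicates. Selected cells were harvested as bulk RNA, no second hairpin per target is named, and nothing says that the duplicates came from separate cultures, so the spread between them may be technical. In bulk RNA, fewer cells with a transcript and less transcript per cell cannot be told apart.

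Ligands of this family bind a ligand-specific receptor chain (IL6R for IL6, IL11RA for IL11) or LIFR or OSMR, and signal through the shared chain gp130, which IL6ST encodes. Receptor-bound JAK kinases then phosphorylate STAT3, which enters the nucleus and activates genes that include SOCS3, whose product shuts the receptor complex down. In breast cancer, IL11 is known as a product of bone-metastatic cells that promotes osteoclast formation, and IL6 as an autocrine factor of the basal-like type. RNA levels alone were measured here, not phosphorylated STAT3 or secreted protein.

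The start regions of IL11 and IL6, the members farthest from the controls in sh_SRSF3, are shown because both genes are classic targets of inducible transcription factors. Each sequence is the 250 bases before the annotated start, from RefSeq (GRCh38.p14), on the gene's strand. Capitals mark the AP-1 motif TGANTCA in IL11 (chr19:55370464-55370713, minus strand, first base at -96 from the start) and the NF-kB motif (GGGA, any base, then TTTCC) in IL6 (chr7:22726950-22727199, plus strand, first base at -73).
IL11: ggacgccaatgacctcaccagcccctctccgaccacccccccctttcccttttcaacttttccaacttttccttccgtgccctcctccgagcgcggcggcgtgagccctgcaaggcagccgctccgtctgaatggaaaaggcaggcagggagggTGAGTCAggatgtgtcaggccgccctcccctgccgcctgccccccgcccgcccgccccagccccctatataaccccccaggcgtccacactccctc
IL6: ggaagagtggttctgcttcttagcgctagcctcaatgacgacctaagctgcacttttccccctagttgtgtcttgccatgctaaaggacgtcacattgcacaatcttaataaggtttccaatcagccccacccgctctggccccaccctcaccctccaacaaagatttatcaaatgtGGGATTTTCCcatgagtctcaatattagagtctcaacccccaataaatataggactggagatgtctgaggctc

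Windows of 300 bases (250 before the start and 50 after) were at hand for 8 members, LIF and CLCF1 not among them, and 3 motifs were searched on both strands. TGANTCA occurred in the windows of IL11, OSMR and IL6R and in 7.71% of all 35116 windows. The NF-kB motif occurred in that of IL6 alone among the members and in 0.558% of all windows. The STAT motif TTCNNNGAA occurred in 2 of the 3 windows of LIFR and in no window of another member, against 7.66% of all windows. A match is a description of the letters and not a site in use, and no member's window held more than 1 of these motifs.

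The hairpin libraries held 34457445 to 38326930 counted reads each. Levels are given as CPM, a gene's reads relative to the library's total after TMM scaling, with replicate 1 before replicate 2. TARDBP averaged 146 ± 31 CPM in sh_control and 32.9 ± 2.2 in sh_TDP43 (SD, n = 2), and SRSF3 averaged 431 ± 39 in sh_control and 62.9 ± 1.6 in sh_SRSF3 (SD, n = 2), as the labels say. SRSF3 was also lower in sh_TDP43, at 184 ± 5.0 CPM, and TARDBP in sh_SRSF3, at 105 ± 4.5 CPM (SD, n = 2), so both hairpin groups had less of both RNAs. The line's own 5 genes (VIM, CD44, AXL, KRT8 and KRT18) summed to 4434 to 5858 CPM. The sum hides differences in both hairpin groups. In sh_TDP43 2 of them were higher and 2 lower by the test described below, where 44.8% of all genes were called. In sh_SRSF3 2 were likewise higher and 2 lower, where 66.9% of all genes were called. CD44 was at 674 and 787 CPM in sh_control and at 357 and 353 in sh_SRSF3. AXL was at 1731 and 1499 CPM in sh_control and at 460 and 401 in sh_TDP43. KRT8 was at 718 and 704 CPM in sh_control and at 975 and 1037 in sh_TDP43. Of 4 genes listed as low in the line, PGR stood at 0 to 0.03 and ESR1 at 0.161 to 1.86 CPM. ERBB2 stood at 84.0 to 90.3 CPM. GATA3 was present too, averaging 10.9 CPM in sh_control, 11.9 in sh_TDP43 and 9.64 in sh_SRSF3.

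IL11 had the widest range of the 4 ligands. IL11 (ENSG00000095752, GRCh37 chromosome 19, 55875757 to 55881831, minus strand) stood at 129 and 102 CPM in sh_control, at 15.9 and 10.9 in sh_TDP43 and at 1.56 and 0.970 in sh_SRSF3. The 3 groups did not overlap, and the sh_SRSF3 values rest on 52 and 35 reads, against 4804 and 3922 in sh_control. The log2 difference from sh_control was -3.11 (SE 0.18) in sh_TDP43, or 8.63-fold lower, and -6.52 (SE 0.23) in sh_SRSF3, or 91.9-fold lower.

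IL6 (ENSG00000136244, chromosome 7, 22765503 to 22771621, plus strand) is the founding ligand and an inflammatory cytokine. It stood at 47.2 and 85.5 CPM in sh_control, at 39.8 and 51.5 in sh_TDP43 and at 6.19 and 8.70 in sh_SRSF3. The sh_TDP43 values overlapped the controls, with a log2 difference of -0.54 (SE 0.22, 95% interval -1.01 to -0.07). That difference was -0.91 without sh_control replicate 1 and -0.05 without sh_control replicate 2, so its size depends on which control library is used. In sh_SRSF3 both values lay far under every other library, 8.89-fold lower than the controls (log2 difference -3.15, SE 0.25).

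LIF, a ligand of the LIFR and gp130 pair (ENSG00000128342, chromosome 22, 30636436 to 30642840, minus strand), was at 98.9 and 96.5 CPM in sh_control, at 56.2 and 60.9 in sh_TDP43 and at 33.8 and 36.5 in sh_SRSF3. CLCF1, a ligand that binds the CNTF receptor (ENSG00000175505, chromosome 11, 67131639 to 67141648, minus strand), was at 33.3 and 36.8 CPM in sh_control, at 19.6 and 21.3 in sh_TDP43 and at 8.32 and 6.54 in sh_SRSF3. Both genes were stepped in the order control, sh_TDP43, sh_SRSF3 with no overlap between groups. The log2 differences of LIF were -0.74 (SE 0.09) in sh_TDP43 and -1.47 (SE 0.10) in sh_SRSF3. Those of CLCF1 were -0.78 (SE 0.13) and -2.24 (SE 0.15).

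**Figure D1:**
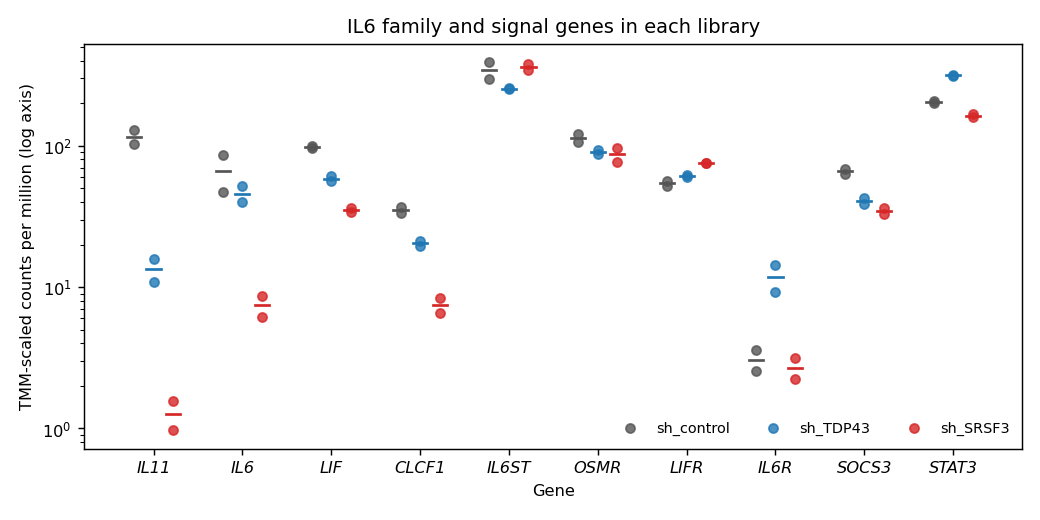
TMM-scaled CPM (log axis) of the 10 genes in each hairpin library, with points for libraries and bars for the mean of 2. IL11, LIF and CLCF1 step down from sh_control through sh_TDP43 to sh_SRSF3 with no overlap, whereas IL6R and STAT3 have their highest values in sh_TDP43.

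The receptor chains differed less and not in 1 direction. IL6ST, which encodes gp130 (ENSG00000134352, chromosome 5, 55230923 to 55290821, minus strand), was at 295 and 388 CPM in sh_control, at 255 and 250 in sh_TDP43 and at 345 and 376 in sh_SRSF3. The sh_TDP43 values lay under both controls (log2 difference -0.44, SE 0.12), and the sh_SRSF3 values lay between the controls (log2 difference 0.08, SE 0.12, 95% interval -0.18 to 0.33, and -0.079 under upper-quartile scaling). The difference in sh_TDP43 was -0.63 without sh_control replicate 1 and -0.23 without sh_control replicate 2.

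OSMR, the oncostatin M receptor chain (ENSG00000145623, chromosome 5, 38845960 to 38945698, plus strand), was at 106 and 122 CPM in sh_control, at 92.9 and 87.6 in sh_TDP43 and at 76.5 and 97.0 in sh_SRSF3. Both hairpin groups lay under the controls, with log2 differences of -0.34 (SE 0.12) and -0.39 (SE 0.12). OSMR shares 229 exon bases with RICTOR on the opposite strand, which had 2122 to 3276 reads, and counting ignored strand, so its level is uncertain. LIFR, the LIF receptor chain (ENSG00000113594, chromosome 5, 38475065 to 38608456, minus strand), was at 56.0 and 52.3 CPM in sh_control, at 62.6 and 59.6 in sh_TDP43 and at 75.6 and 75.0 in sh_SRSF3. It was the one member with both sh_SRSF3 libraries above all others, with log2 differences of 0.17 (SE 0.09) in sh_TDP43 and 0.48 (SE 0.09) in sh_SRSF3. Reads of an antisense transcript such as LIFR-AS1 cannot be told apart from those of LIFR.

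IL6R, the IL6-binding chain (ENSG00000160712, chromosome 1, 154377669 to 154441926, plus strand), was at 3.58 and 2.56 CPM in sh_control, at 9.23 and 14.4 in sh_TDP43 and at 2.22 and 3.16 in sh_SRSF3. The sh_TDP43 libraries stood above all others, 3.85-fold higher than the controls (log2 difference 1.94, SE 0.26). The sh_SRSF3 values overlapped the controls, with a log2 difference of -0.18 (SE 0.28, 95% interval -0.79 to 0.42).

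The signal genes STAT3 and SOCS3 lay on opposite sides of the controls in sh_TDP43. STAT3 (ENSG00000168610, chromosome 17, 40465342 to 40540586, minus strand) was at 207 and 202 CPM in sh_control, at 314 and 315 in sh_TDP43 and at 167 and 159 in sh_SRSF3. SOCS3 (ENSG00000184557, chromosome 17, 76352859 to 76356158, minus strand) was at 63.2 and 68.4 CPM in sh_control, at 42.6 and 38.6 in sh_TDP43 and at 36.2 and 32.6 in sh_SRSF3. STAT3 thus had its highest values in sh_TDP43 (log2 difference 0.62, SE 0.09) and its lowest in sh_SRSF3 (-0.33, SE 0.09), with no overlap between the 3 groups. SOCS3 was lower than the controls in both hairpin groups, with log2 differences of -0.70 (SE 0.10) and -0.94 (SE 0.11).

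**Figure D2:**
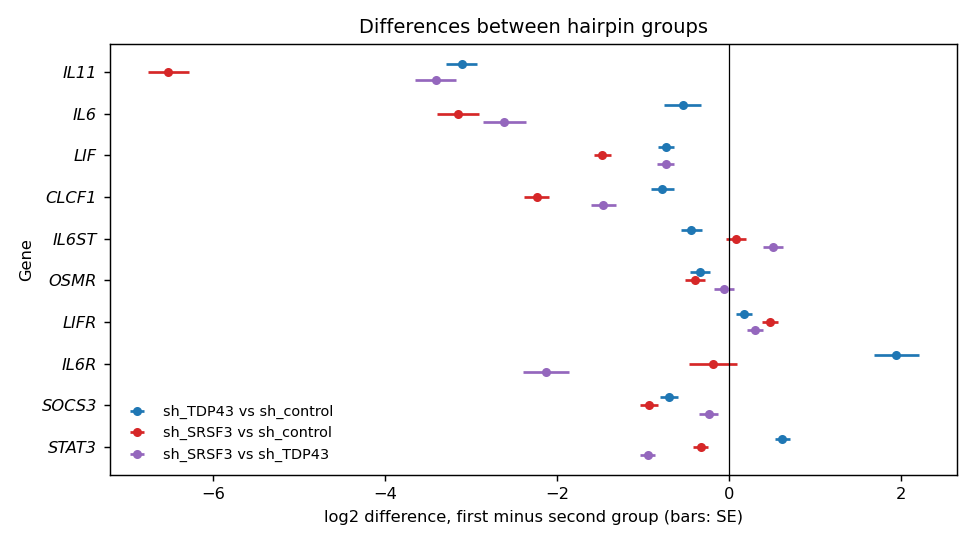
Log2 difference of each gene between hairpin groups, with bars of 1 standard error from the edgeR fit of 6 libraries. IL11 lies farthest to the left, at -6.52 in sh_SRSF3 against sh_control, and IL6R in sh_TDP43 lies farthest to the right, at 1.94.

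In the quasi-likelihood test of edgeR, which called a gene at a Benjamini-Hochberg adjusted p under 0.05 over 15026 genes, 8 of 10 members were called in sh_TDP43 (2 higher and 6 lower), where 44.8% of all genes were called (20.7% higher and 24.1% lower). In sh_SRSF3 8 of 10 were called (1 higher and 7 lower), where 66.9% of all genes were called (32.5% higher and 34.4% lower). With upper-quartile scaling the sh_TDP43 count was 3 higher and 5 lower. Libraries did not overlap for 9 members in sh_TDP43, against 73.2% of all genes, and for 8 members in sh_SRSF3, against 83.2%. The members called and at least 2-fold lower were 1 in sh_TDP43 (6.44% of all genes) and 4 in sh_SRSF3 (20.4%), the 4 being the ligands. The median log2 difference of the 10 members was -0.49 in sh_TDP43 and -0.66 in sh_SRSF3, where that of all genes was -0.00 and -0.03. These contrasts chose the members and share the control libraries, so nothing is read from the counts.

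Leaving out a library leaves 1 in its group, so a call can be lost without a smaller difference. Only log2 differences are therefore given for such fits. In sh_TDP43 that of OSMR was -0.25 without sh_control replicate 2, -0.38 without sh_TDP43 replicate 1 and -0.29 without sh_TDP43 replicate 2. That of IL6ST was -0.23 without sh_control replicate 2 and -0.42 without sh_TDP43 replicate 2. IL6 was not called in sh_TDP43. Its difference was -0.91 without sh_control replicate 1, -0.55 without sh_SRSF3 replicate 1 and -0.54 without sh_SRSF3 replicate 2. In sh_SRSF3 the difference of OSMR was -0.30 without sh_control replicate 2 and -0.23 without sh_SRSF3 replicate 1. That of STAT3 was -0.31 without sh_SRSF3 replicate 2, and that of IL6ST was 0.28 without sh_control replicate 2.

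Order by level was compared per kilobase of exon, as mean CPM per kilobase. In sh_control IL11 came first at 43.4 ± 7.1 (SD, n = 2), before IL6ST at 36.8 ± 7.1 and IL6 at 32.1 ± 13, neighbours that did not differ beyond their spread. LIF at 24.6 ± 0.42, SOCS3 at 24.1 ± 1.4 and STAT3 at 23.2 ± 0.45 were likewise close together, and CLCF1 at 17.7 ± 1.2 lay near OSMR at 15.9 ± 1.5. LIFR at 4.57 ± 0.22 and IL6R at 0.475 ± 0.11 stood lower (SD, n = 2). In sh_SRSF3 IL11 was next to last at 0.474 ± 0.16, within the spread of IL6R at 0.417 ± 0.10, and IL6ST came first at 38.8 ± 2.3 (SD, n = 2). In sh_TDP43 STAT3 came first at 35.7 ± 0.13, and IL11 at 5.02 ± 1.3 did not differ beyond its spread from LIFR at 5.15 ± 0.17 (SD, n = 2).

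The direct comparison sets sh_SRSF3 against sh_TDP43 rather than against the controls. The control libraries were still in the same fit and share its filter, scaling and estimate of spread. The comparison uses the same hairpin libraries as the values above, which were known when the members were chosen. Its values are therefore descriptions too, and nothing is read from its calls. Here 8 of 10 members were called (2 higher and 6 lower in sh_SRSF3), where 65.5% of all genes were called (32.0% higher and 33.5% lower). The median log2 difference was -0.84, against -0.04 over all genes, and libraries did not overlap for 9 members, against 83.8% of all genes. All 4 ligands were lower in sh_SRSF3 than in sh_TDP43. The log2 difference was -3.41 for IL11 (SE 0.24), -2.61 for IL6 (SE 0.25), -1.46 for CLCF1 (SE 0.14) and -0.74 for LIF (SE 0.10). STAT3 (-0.95, SE 0.09) and IL6R (-2.13, SE 0.27) were also lower.

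IL6ST was higher in sh_SRSF3 than in sh_TDP43 by 0.51 on the log2 scale (SE 0.12). LIFR was higher by 0.30 (SE 0.09). The difference of LIFR was 0.25 without sh_TDP43 replicate 2, 0.31 without sh_SRSF3 replicate 1 and 0.29 without sh_SRSF3 replicate 2. SOCS3 (-0.24, 95% interval -0.47 to -0.01) and OSMR (-0.06, 95% interval -0.31 to 0.19) were not called. Upper-quartile scaling gave 0 higher and 8 lower, since IL6ST (adjusted p = 0.0613) and LIFR (0.619) lost their calls and SOCS3 (0.00114) and OSMR (0.0302) gained one.

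The rest of the pathway was read from 5 lists of 74 genes in all. These lists were also drawn up with earlier results of the libraries known, so their adjusted p-values, taken over all genes, are no independent evidence. Their counts stand beside the 44.8% of all genes called in sh_TDP43 and the 66.9% called in sh_SRSF3. Of the 11 other ligands and receptors of the family, 6 passed the filter on low counts, and 5 were below 1 CPM in every library. In sh_TDP43 2 rose and 1 fell. CTF1, the ligand cardiotrophin 1, rose from 4.76 and 3.81 CPM to 8.39 and 9.36 (log2 1.05, SE 0.19, edgeR adjusted p = 0.000576). The ligand CNTF rose by 0.90 (SE 0.24, adjusted p = 0.00768), and by 0.76 without sh_control replicate 2. IL31RA, a gp130-like receptor, fell by 1.32 (SE 0.18, adjusted p = 4.05e-05).

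In sh_SRSF3 1 of those 6 rose and 4 fell. IL11RA, the receptor chain that binds IL11, was at 4.30 and 5.45 CPM in sh_control, at 6.27 and 8.18 in sh_TDP43 and at 1.62 and 1.19 in sh_SRSF3, and it fell there by 1.80 (SE 0.27, edgeR adjusted p = 3.74e-05). The receptor IL27RA fell by 2.73 (SE 0.30, adjusted p = 2.43e-06), IL31RA by 1.46 (SE 0.18, 5.85e-06) and EBI3, a subunit of IL27, fell by 3.02 (SE 0.72, 0.00196) from a level of 0.962 ± 0.48 CPM (SD, n = 2). CTF1 rose by 1.06 (SE 0.19, adjusted p = 0.000238). The list's median log2 difference was 0.27 in sh_TDP43 and -1.63 in sh_SRSF3.

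Of 10 JAK kinases and other STATs, 6 rose and 3 fell in sh_TDP43 (median 0.35), where 20.7% of all genes rose and 24.1% fell. In sh_SRSF3 1 rose and 5 fell (median -0.29), where 32.5% of all genes rose and 34.4% fell, and the number called was near that background. STAT5A, which signals mainly for growth hormone and prolactin, was at 25.2 and 26.2 CPM in sh_control, at 32.3 and 39.4 in sh_TDP43 and at 6.58 and 6.29 in sh_SRSF3. It rose by 0.48 in sh_TDP43 (SE 0.13, edgeR adjusted p = 0.00731) and fell by 2.0 in sh_SRSF3 (SE 0.14, 2.49e-08). Its neighbour STAT5B fell in both, by 0.38 (SE 0.10, adjusted p = 0.00633) and by 1.74 (SE 0.10, 6.08e-09). STAT4 rose from 0.807 and 1.54 CPM to 8.44 and 9.49 in sh_TDP43 (log2 2.93, SE 0.34, adjusted p = 1.12e-05).

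JAK2, one of the kinases of gp130 receptors, fell by 1.31 in sh_SRSF3 (SE 0.16, edgeR adjusted p = 5.67e-06), from 12.1 and 12.3 CPM to 5.20 and 4.65. JAK3, a kinase of lymphoid cytokine receptors, was called higher in sh_TDP43 (log2 1.23, SE 0.43, adjusted p = 0.0329), and in sh_SRSF3 it had 0 and 6 reads, against 42 and 94 in sh_control. STAT6 fell by 0.39 in sh_SRSF3 (SE 0.10, adjusted p = 0.00343), where STAT4 rose by 1.24 (SE 0.35, 0.00641). JAK1 and TYK2, also kinases of the complex, fell in sh_TDP43 by 0.30 (SE 0.10, adjusted p = 0.0215) and 0.35 (SE 0.09, 0.00623). In sh_SRSF3 neither JAK1 (log2 -0.02, SE 0.10) nor TYK2 (-0.18, SE 0.09) was called.

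With 1 library left out, several of these differences changed in size, that of TYK2 only a little, and not all became smaller. The values given are from fits that ended a call, which can happen without a smaller difference. Without sh_TDP43 replicate 2 the log2 difference in sh_TDP43 was 0.33 for STAT5A, -0.31 for STAT5B, -0.23 for JAK1, -0.33 for TYK2 and 0.95 for JAK3. That of JAK1 was -0.22 without sh_control replicate 2. That of JAK3 was 0.77 without sh_control replicate 1 and 1.46 without sh_TDP43 replicate 1. In sh_SRSF3 the difference of STAT4 was 0.85 without sh_control replicate 1 and 0.70 without sh_SRSF3 replicate 1.

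Of 15 inhibitors of the pathway besides SOCS3, 1 rose and 5 fell in sh_TDP43 (median log2 difference 0.04), and 8 rose and 6 fell in sh_SRSF3 (median 0.42). SOCS1 and SOCS2 belong to the same feedback family as SOCS3. SOCS1 fell in sh_TDP43 from 1.83 and 2.58 CPM to 0.380 and 0.187 (log2 -2.95, SE 0.50, edgeR adjusted p = 0.000303). In sh_SRSF3 SOCS1 fell further, to 0.120 and 0.139 CPM on 4 and 5 reads (log2 -4.05, SE 0.57, adjusted p = 2.13e-05). SOCS2 was at 16.3 and 12.2 CPM in sh_control, at 9.69 and 8.42 in sh_TDP43 and at 3.0 and 2.13 in sh_SRSF3, and fell by 0.65 (SE 0.19, adjusted p = 0.0145) and by 2.47 (SE 0.22, 2.38e-07). The log2 difference of SOCS2 in sh_TDP43 was -0.43 without sh_control replicate 1 and -0.55 without sh_TDP43 replicate 2.

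PIAS3, an inhibitor that binds STAT3, fell by 0.58 in sh_TDP43 (SE 0.10, edgeR adjusted p = 0.000439) and, in sh_SRSF3, by 1.10 (SE 0.10, 4.97e-07). PIAS4 fell by 0.47 in sh_TDP43 (SE 0.11, adjusted p = 0.00319) and rose by 1.13 in sh_SRSF3 (SE 0.11, 5.49e-07). PTPN11, the phosphatase SHP2 that docks on gp130, was at 349 and 314 CPM in sh_control and rose by 0.35 in sh_TDP43 (SE 0.10, adjusted p = 0.00847) and, in sh_SRSF3, by 1.05 (SE 0.10, 3.76e-07), where it reached 685 and 691 CPM. Its difference in sh_TDP43 was 0.27 without sh_control replicate 2 and 0.27 without sh_TDP43 replicate 1. PTPN2, a phosphatase of JAKs and STATs, fell by 1.12 in sh_TDP43 (SE 0.14, 2.59e-05) and, in sh_SRSF3, by 1.07 (SE 0.14, 1.27e-05). In sh_SRSF3 PTPN6 fell by 1.80 (SE 0.25, 1.71e-05) and SOCS5 rose by 1.17 (SE 0.11, 3.66e-07).

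Known STAT3 targets included genes that rose and genes that fell in both hairpin groups. Of 18 tested, 3 rose and 12 fell in sh_TDP43 (median log2 difference -0.44), the group with the highest STAT3, and 4 rose and 7 fell in sh_SRSF3 (median -0.26). Against 44.8% and 66.9% of all genes called, the number called in sh_SRSF3 was not above the background. In sh_TDP43 VEGFA, the angiogenic factor, fell from 258 and 229 CPM to 73.9 and 72.9 (log2 -1.73, SE 0.10, edgeR adjusted p = 1.78e-08). BCL2L1, which encodes an inhibitor of apoptosis, fell by 1.57 (SE 0.10, adjusted p = 5.65e-08) and CD274, the gene of PD-L1, by 1.17 (SE 0.13, 1.03e-05). MUC1, a membrane mucin, rose by 2.28 (SE 0.17, 2.22e-07), CEBPD by 0.74 (SE 0.16, 0.00186) and LCN2 by 2.45 (SE 0.56, 0.00278). The change of LCN2 was smaller without sh_TDP43 replicate 2 and was 3.82 without sh_control replicate 2.

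In sh_SRSF3 CCND1, the cyclin D1 gene, fell from 802 and 727 CPM to 171 and 145 (log2 -2.27, SE 0.11, edgeR adjusted p = 1.48e-09). CD274 fell by 1.87 (SE 0.14, adjusted p = 4.39e-08) and BCL3 by 1.86 (SE 0.16, 1.39e-07). VEGFA fell by 1.00 (SE 0.09, 4.55e-07) and MUC1 by 1.09 (SE 0.18, 0.000115), whereas BCL2L1 was not called (0.11, SE 0.10). CEBPD rose by 1.3 (SE 0.16, 5.65e-06), FOS by 1.10 (SE 0.17, 6.22e-05) and JUNB by 0.56 (SE 0.17, 0.0115). The difference of JUNB was 0.30 without sh_control replicate 1 and 0.46 without sh_SRSF3 replicate 2.

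Genes known to induce IL11, IL6 or LIF came from the AP-1, NF-kB, TGF-beta, RUNX and IL1 groups. Of 18 tested, 3 rose and 9 fell in sh_TDP43 (median log2 difference -0.19), and 4 rose and 8 fell in sh_SRSF3 (median -0.26), the last near the 66.9% of all genes called there. FOSL2, an AP-1 subunit, was at 402 and 463 CPM in sh_control, at 219 and 239 in sh_TDP43 and at 112 and 109 in sh_SRSF3, and fell by 0.92 (SE 0.10, edgeR adjusted p = 6.12e-06) and 1.97 (SE 0.10, 1.84e-09). FOSL1, another AP-1 subunit, fell by 1.24 in sh_TDP43 (SE 0.10, 5.11e-07), from 562 in both control libraries to 239 and 238 CPM. In sh_SRSF3 FOSL1 stood at 316 and 264 CPM. RUNX1 rose in both groups, by 0.52 (SE 0.09, 0.000339) and 0.77 (SE 0.09, 3.32e-06).

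TGFB2, a TGF-beta ligand, was at 189 and 178 CPM in sh_control, at 340 and 272 in sh_TDP43 and at 79.5 and 63.4 in sh_SRSF3, and so rose by 0.74 (SE 0.12, edgeR adjusted p = 0.000264) and fell by 1.36 (SE 0.13, 3.92e-07). TGFB1 fell by 1.67 in sh_SRSF3 (SE 0.12, adjusted p = 2.46e-08). RUNX2 fell by 0.77 in sh_TDP43 (SE 0.13, 0.000214), where RELB rose by 0.60 (SE 0.21, 0.0287). SMAD4 rose by 0.69 (SE 0.11, 9.96e-05) and FOSB by 0.64 (SE 0.19, 0.00799) in sh_SRSF3. The difference of RELB was 0.36 without sh_control replicate 1 and 0.30 without sh_TDP43 replicate 2, and that of FOSB was 0.18 without sh_SRSF3 replicate 2.

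**Figure D3:**
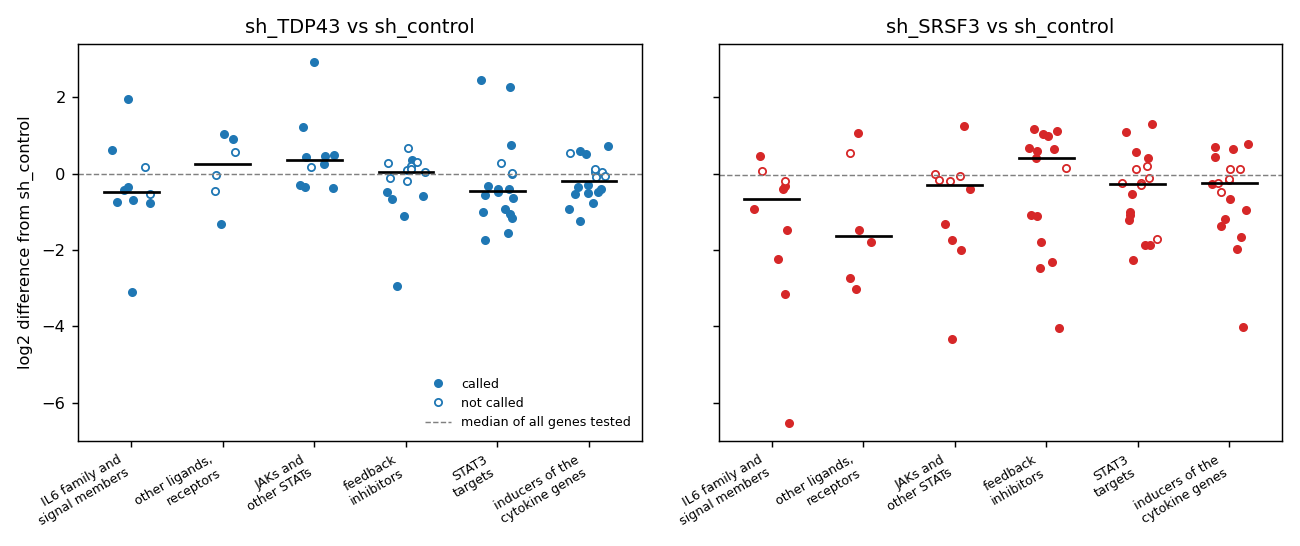
Log2 difference from sh_control of each tested gene in the 10-gene set and the 5 other lists, filled where called and open where not, with a bar at each list's median and a dashed line at the median of all genes. Other ligands and receptors have a median of 0.27 in sh_TDP43 and -1.63 in sh_SRSF3.

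In the direct comparison of sh_SRSF3 with sh_TDP43, 0 of 6 other ligands and receptors were higher in sh_SRSF3 and 3 lower, and of the JAK and STAT genes 1 of 10 was higher and 8 lower (median -1.0). Of the inhibitors 6 were higher and 4 lower, of the STAT3 targets 7 and 6, and of the inducers 6 and 7. Over all genes 32.0% were higher and 33.5% lower, and the counts of the inhibitors, targets and inducers lay near that background. Over the 5 lists that made 20 higher and 28 lower, and upper-quartile scaling made 15 higher and 33 lower.

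Markers of other cells were read beside these results. Of 8 haematopoietic markers, 3 were below 1 CPM in every library, and PTPRC, the pan-leukocyte gene, stood at 0.430 and 0.626 CPM in sh_control, at 2.80 and 1.23 in sh_TDP43 and at 0.240 and 0.111 in sh_SRSF3. It was thus highest in sh_TDP43, unlike the sum of the list. Their summed level was 121 to 151 CPM in sh_control, 76.4 to 84.9 in sh_TDP43 and 37.7 to 39.2 in sh_SRSF3, nearly all of it CD68, at 118 and 146 CPM in sh_control and 36.5 and 38.3 in sh_SRSF3. The 8 fibroblast markers summed to 22.4 to 24.8 CPM in sh_control and sh_TDP43 and to 39.0 to 42.9 in sh_SRSF3. COL1A1 made up most of that sum, at 23.9 and 25.3 CPM in sh_SRSF3, and LUM reached 12.4 and 15.0 CPM there. PDGFRB went the other way, from 6.24 and 5.53 CPM in sh_control to 1.44 and 1.08 in sh_SRSF3. The part of these markers in the cytokine values was not tested.

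The genes whose pattern was most like that of IL11 were sought by the root mean square difference of centred log2 CPM over the 6 libraries. The search covered the named ones among 12598 genes with a mean of at least 1 CPM. The nearest were ADGRG1 (0.584), an adhesion receptor, TMEM121 (0.694), PAQR4 (0.711), NOX5 (0.713), an NADPH oxidase, and SPDEF (0.731), an ETS transcription factor. ADGRG1 averaged 73.4 CPM in sh_control, 9.17 in sh_TDP43 and 1.86 in sh_SRSF3. SPDEF averaged 32.8, 8.60 and 0.937 CPM. PAQR4 (16.3, 3.49 and 0.569) and NOX5 (14.5, 1.60 and 0.381) lay near the floor in sh_SRSF3. TMEM121 averaged 3.13, 0.969 and 0 CPM, and its log2 differences of -1.69 and -9.84 from sh_control were unlike those of IL11. They were picked for their likeness, so it carries no test.

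In the RIPs, the RNA of the tagged protein's own gene was higher in the RIP than in the input: TARDBP at 80.4 against 14.2 FPKM for Flag-TDP43, and SRSF3 at 91.3 against 54.9 FPKM for Flag-SRSF3. SRSF3 RNA was also higher in the Flag-TDP43 RIP, at 83.4 against 29.3 FPKM, a larger ratio than in its own RIP, so this does not check the Flag-SRSF3 label by itself. By signal the SRSF3 values were 562 against 349 for Flag-SRSF3 and 186 against 137 for Flag-TDP43. FPKM, as the authors deposited them, relate fragments to the length of the gene and the size of the library. Summed over all genes they were 185564 in the RIP and 505828 in the input for Flag-TDP43. For Flag-SRSF3 the sums were 283345 and 531147. The values were not rescaled to equal sums, so the sign of a ratio depends on the scaling. A gene was kept where RIP and input summed to at least 1, and the ratio is log2 of RIP over input after adding 0.5 to both. A second deposited table of the same libraries holds a normalised signal of unstated unit, and its values are given beside the FPKM. With 1 library each there is no replicate check.

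The 2 tables do not give the same picture for LIF and IL6R. LIF stood at 0.10 to 0.263 FPKM, and so was not kept, but at 14.1 to 22.4 in the signal table. IL6R was listed at 0 FPKM in both inputs and stood at 0.454 and 0.520 in the signal of the inputs. The FPKM values of these genes were therefore not used for a ratio.

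With Flag-TDP43, LIFR was the member with the highest ratio, at 4.57 FPKM in the RIP and 2.01 in the input (log2 1.01 by FPKM and 0.97 by signal). SOCS3 had the lowest, at 8.92 against 28.4 FPKM (log2 -1.62 and -1.69), and IL6 was at 2.33 against 7.26 FPKM (log2 -1.45 and -1.48). IL11, the most abundant ligand, was at 45.0 against 28.8 FPKM (log2 0.63 and 0.33). STAT3 had ratios of 0.57 and 0.12, OSMR of -0.72 and -0.86, and IL6ST of -0.46 and -1.32. CLCF1 changed sign between the tables, at 0.83 by FPKM and -0.30 by signal, and LIF was at -0.12 by signal.

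By FPKM 8 members were kept with Flag-TDP43, of which 1 was at least 2-fold higher in the RIP, where 17.4% of all kept genes were, and 2 were at least 2-fold lower, where 15.4% were. By signal 9 were kept, of which 0 were 2-fold higher (12.6% of all genes) and 3 were 2-fold lower (15.4%). LIFR lies at that threshold, just inside by FPKM and just outside by signal. The RIP exceeded the input for 4 of 8 members by FPKM (50.9% of all genes) and for 3 of 9 by signal (45.3%). The median of the members was 0.06 by FPKM, against 0.02 over all genes, and -0.30 by signal, against -0.10.

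With Flag-SRSF3, CLCF1 had the highest ratio, at 20.5 FPKM in the RIP and 5.68 in the input (log2 1.77 by FPKM and 1.64 by signal). SOCS3 was at 59.5 against 32.9 FPKM (log2 0.85 and 0.73), IL6 at 7.0 against 4.08 FPKM (log2 0.71 and 1.31) and IL11 at 38.9 against 31.7 FPKM (log2 0.29 and 0.66). OSMR had ratios of 0.70 and 0.69, STAT3 of 0.66 and 0.68, and LIF of 0.66 by signal. IL6ST lay near equality at 0.06 and -0.13. LIFR was the one kept member lower in the RIP by FPKM, at 2.01 against 3.97 (log2 -0.83), and by signal it was at -0.21. Its FPKM in this RIP and in the Flag-TDP43 input are the same number, 2.01245, whereas its signal there was 7.90 and 10.8. The FPKM ratios of LIFR with both proteins are therefore uncertain.

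By FPKM 8 members were kept with Flag-SRSF3, and 7 of them were higher in the RIP, where 59.3% of all kept genes were. At least 2-fold higher was 1 (16.6% of all genes), and at least 2-fold lower were 0 (8.19%). By signal 10 were kept and 8 were higher in the RIP (51.7% of all genes), with 2 at least 2-fold higher (9.91%) and 0 at least 2-fold lower (8.26%). The median ratio of the members was 0.68 by FPKM, against 0.18 over all genes. The other pathway genes had a median of 0.50 over the 51 kept of 74, with 17 at least 2-fold higher and 0 lower. With Flag-TDP43 their median was 0.17 over 55 kept, against 0.02 over all genes. There 15 were at least 2-fold higher (17.4% of all genes) and 8 lower (15.4%). By signal 14 and 0 of 66 kept were higher and lower for Flag-SRSF3 (median 0.51), against 9.91% and 8.26% of all genes (median 0.03). For Flag-TDP43 they were 12 and 9 of 63 (median 0.06), against 12.6% and 15.4% of all genes (median -0.10).

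**Figure D4:**
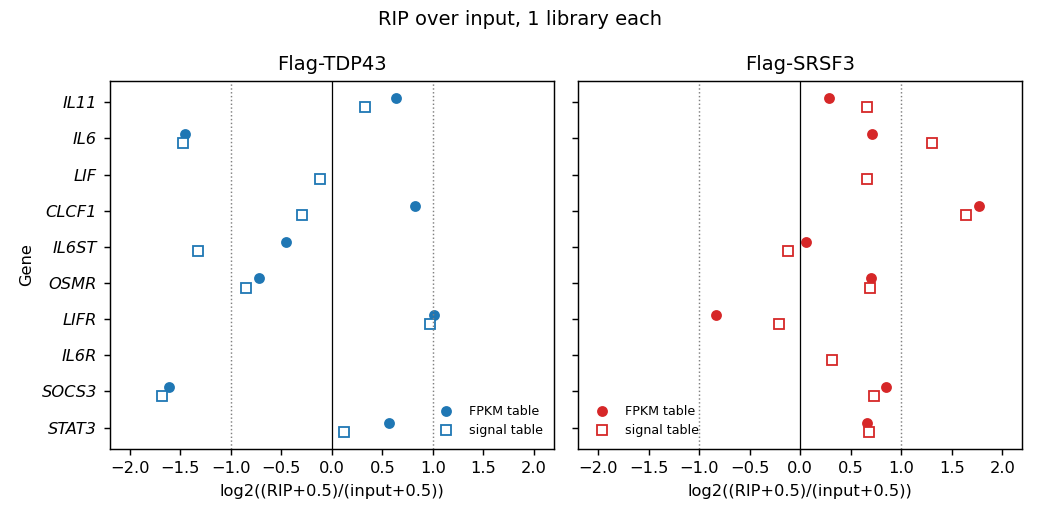
Log2 ratio of RIP to input after adding 0.5, for Flag-TDP43 and Flag-SRSF3, from the FPKM table (circles) and the signal table (squares), with dotted lines at 2-fold. SOCS3 and IL6 lie left of -1 for TDP43 and right of 0 for SRSF3, and LIFR lies near 1 for TDP43 and left of 0 for SRSF3.

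Set against each other, the ratio was higher with Flag-SRSF3 than with Flag-TDP43 for 6 of 8 members kept in both by FPKM, where 53.6% of all genes were, and for 8 of 9 by signal, where 53.4% were. The ratio was at least 2-fold higher with Flag-SRSF3 for 3 members by FPKM (27.0% of all genes) and for 5 by signal (24.3%). Those by FPKM were SOCS3 (difference of log2 ratios 2.46), IL6 (2.17) and OSMR (1.43). LIFR was at least 2-fold higher with Flag-TDP43 by both tables (-1.85 and -1.18), which 20.7% and 18.9% of all genes were. The difference of IL11 changed sign between the tables, at -0.35 by FPKM and 0.33 by signal.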

How the data were processed

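The members and gene lists were chosen with earlier results of these data known. Per the file headers, the authors deposited raw counts, made with featureCounts v1.4.6-p5 over exons without a strand option and with coordinates of GRCh37. STAR 2.5.2a, HISAT2 2.0.5, StringTie 1.3.0 and Cufflinks stand in the submitters' processing notes without a stated role. The authors also deposited FPKM per gene for the RIPs, and a table of normalised signal for the same libraries of unstated unit. Both deposited tables also hold log2 fold changes, used as an alternative only. The lowest FPKM steps correspond to 27.7 to 28.4 M reads per RIP or input library.

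Counts were fitted with edgeR 4.0.16 in R 4.3.3 (TMM, filterByExpr, quasi-likelihood F-test, 6 libraries in one fit, 3 residual degrees of freedom), which left 15026 genes. DESeq2 1.42.0 was an alternative. The procedure was tested on simulated data. No 2 replicates agreed within sampling noise (mean chi-square per gene 11.3 to 23.1). Of the per-sample count columns, 2 matched no label and were left out, and the knockdown of both proteins together was not analysed here. Named in the text are all members, TARDBP and SRSF3, and the 5 genes nearest to IL11. From each list came every called gene where at most 6 were called. From longer lists came the 3 largest changes in each direction among called genes with a mean of at least 1 CPM and groups that did not overlap. PTPRC, CD68, LUM, COL1A1, PDGFRB, LIFR-AS1 and the separate values of AXL, CD44 and KRT8 were chosen after values were seen. So were the values of some list genes in the hairpin group where this rule did not name them.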

Additional observations from a re-analysis of the deposited data

How the results depend on the processing

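The members' log2 differences, those of the named list genes and the counts of calls were recomputed under 11 alternatives: fits of only the groups compared, upper-quartile scaling, no filter on low counts, DESeq2, a replicate block and leaving out each library. Where a library was left out, 1 remained in its group, and only log2 differences are given for those fits. The log2 difference of IL6ST in sh_SRSF3 against sh_control turned to -0.079 with upper-quartile scaling, -0.11 without sh_control replicate 1 and -0.0013 without sh_SRSF3 replicate 2, and was 0.28 at the highest. That of IL6R, -0.48 at the lowest, turned to 0.077 without sh_control replicate 1 and 0.05 without sh_SRSF3 replicate 1, and that of OSMR in sh_SRSF3 against sh_TDP43, -0.25 without sh_SRSF3 replicate 2, to 0.11 without sh_SRSF3 replicate 1. The cause was not tested. With the replicate block 9, 8 and 9 members were called in sh_TDP43 and sh_SRSF3 against sh_control and in sh_SRSF3 against sh_TDP43, IL6 (edgeR adjusted p = 0.000698) and SOCS3 (0.0356) being the additions. Over all genes the block moved the calls in sh_TDP43 from 3105 higher and 3623 lower to 3570 and 4102. Libraries of the same number deviated together (correlations 0.143 to 0.243), but the labels give only a number. IL6 in sh_TDP43 was also called with no filter (5.37e-05) and with only the groups compared (0.0417), and SOCS3 in the direct comparison with only those groups (0.049). OSMR in sh_TDP43 lost its call with upper-quartile scaling (0.0973), where LIFR gained one (0.0281). DESeq2 ended the calls of LCN2 (adjusted p = 0.0819) and RELB (0.182) in sh_TDP43, and upper-quartile scaling those of JAK1 in sh_TDP43 (0.0959) and JUNB in sh_SRSF3 (0.0593). Of the list genes named, 591 of the recomputed values kept their call and 25 lost it. The 25 include fits with 1 library left in a group, where a call can be lost without a smaller difference. Upper-quartile scaling moved the median of all genes from -0.03 to -0.19 in sh_SRSF3 against sh_control and from -0.04 to -0.29 in sh_SRSF3 against sh_TDP43. It moved the calls over all genes in sh_TDP43 to 3956 higher and 2978 lower, in sh_SRSF3 against sh_control from 4881 and 5164 to 3959 and 6020, and in sh_SRSF3 against sh_TDP43 from 4801 and 5041 to 3378 and 6451. With Flag-SRSF3 the members past 2-fold were 2 instead of 1 under several alternatives, but not the same 2. With the median of all genes subtracted, 1 was higher (CLCF1) and 1 lower (LIFR). By signal, CLCF1 and IL6 were higher. By the log2 values that the authors deposited with the FPKM, CLCF1 and LIF were higher, and the FPKM of LIF were too low to be kept here. No alternative for the combined knockdown was run. In sh_SRSF3 depth limits IL11, which rests on 35 to 52 reads per library.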
